A study of Homo sapiens with 12 samples.

Results

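The septins analysed here are 8 genes found in the deposited tables by their older symbols, SEPT2, SEPT5, SEPT6, SEPT7, SEPT8, SEPT9, SEPT10 and SEPT11, out of 23615 genes listed. They were chosen around SEPT7 because its transcript was known to be more abundant in the HuR knockdown line, so the differences between lines are given below as a description of these members and carry no p-value. All 8 were among the 16005 genes that passed the filter on low counts.

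RNA was taken from HEK293T cells, a human embryonic kidney line that expresses a viral large T antigen, carrying a lentiviral hairpin against HuR (shHuR) or a control hairpin (shControl), both after puromycin selection. ELAVL1 is the gene of HuR, a protein that binds AU-rich RNA. Each line was left untreated or was treated for 18 h with 25 µM HNE(alkyne), a reactive aldehyde of oxidised lipids that carries an alkyne handle, or with 225 µM H2O2, and the 6 groups held 2 biological replicates each. Each line is 1 selected population made with 1 hairpin, so the hairpin, the population and the loss of HuR cannot be told apart in any difference between lines.

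Septins are GTP-binding proteins that assemble into rods and filaments on membranes, actin and microtubules, and they act as a scaffold at the cleavage furrow of dividing cells. They fall into 4 homology groups named after SEPT2, SEPT6, SEPT7 and SEPT9, and a rod takes subunits from these groups in a set order. SEPT7 is the single member of its group, whereas subunits within the SEPT2 and SEPT6 groups can stand in for each other.

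The members share a stretch of 24 coding bases for the loop that binds the phosphates of GTP. It is shown because it is the most recognisable sequence of the family and because near-identical copies decide whether reads can be told apart. Capitals mark the codons of the residues that the search required (Gly, then after 4 free residues Gly, Lys and Ser or Thr), and the sequences were read 5′ to 3′ from GENCODE release 29 transcripts.
SEPT7: GGTgaatctggattgGGAAAGTCG
SEPT2: GGTgaatcaggtctaGGAAAATCG
SEPT5: GGTgagtcaggcctgGGGAAGTCC
SEPT6: GGAgagacaggtttgGGCAAGTCC
SEPT8: GGGgagaccggcattGGCAAATCC
SEPT10: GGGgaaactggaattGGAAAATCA
SEPT11: GGTgagacaggcattGGCAAATCC
SEPT9: GGGcagagcggcttgGGTAAATCC
Against the SEPT7 stretch, SEPT2 differed at 5 bases, SEPT5 and SEPT10 at 6, SEPT6 at 7, SEPT11 at 9, and SEPT8 and SEPT9 at 10. In all 8 genes an intron interrupted the stretch after its first base, so the first codon was split over adjacent exons. These were exons 2 and 3 in SEPT7 and in the 4 members of the SEPT6 group analysed here. The 23 bases after the junction lie on GRCh38 at chr7:35863552-35863574 for SEPT7, chr2:241335126-241335148 for SEPT2, chr22:19719806-19719828 for SEPT5, chr4:77005601-77005623 for SEPT11 and chr17:77487424-77487446 for SEPT9, all on the plus strand. They lie at chrX:119663655-119663677 for SEPT6, chr5:132764397-132764419 for SEPT8 and chr2:109585299-109585321 for SEPT10, on the minus strand. The submitters' processing notes name GRCh37 (hg19), so these are positions of the reference used here and not of the authors' alignment.

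Longer stretches set the members apart. Of the 4276 windows of 75 bases (the read length) in the principal SEPT7 transcript, 73 (1.71%) also occurred in a transcript of another gene, all of them septin pseudogenes or an unnamed gene, and 10 of these windows were shared with the pseudogene SEPT7P2. SEPT6, SEPT9 and SEPT11 had no such window. Only exact matches over all 75 bases counted, so stretches with a few differences are not in these shares. For SEPT2 the share was 3.53%, most of it with the antisense strand of HDLBP, and for SEPT10 it was 3.93%, with the pseudogene SEPT10P1. In SEPT8 27.7% of windows overlapped CCNI2 on the other strand. SEPT5 was the exception, with 91.1% of its windows shared with the readthrough gene SEPT5-GP1BB, and its deposited counts were fractional. The SEPT5 row is therefore uncertain, and SEPT2 and SEPT8 are uncertain in so far as the authors' counting, whose strand setting is not given in the sources used here, mixed the strands.

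Over the series, total counts per library ran from 24855946 to 29907256. ELAVL1, the target of the hairpin, averaged 93.1 ± 4.91 CPM (counts scaled to the size of the library) in shControl and 71.3 ± 2.01 in shHuR (SD, n = 6). The log2 difference was -0.38 (SE 0.0405, edgeR adjusted p = 2.60e-06), and the lines did not overlap, as for 12.1% of all genes. The hairpin's 21-base target, cccatcacagtgaagtttgca, is shown because it defines the shHuR line. It occurred in ELAVL1 and in no other gene of the reference, at chr19:7967669-7967689 on the minus strand (GRCh38), in the coding sequence in exon 5 of 6. Of 8 genes usually seen in HEK293 cells, 7 had at least 3.40 CPM in every library, and PAX2 had 0.144 to 0.491 CPM. Their summed level was 974 to 1059 CPM in shControl and 803 to 863 CPM in shHuR, and its part in the results below was not tested. Of 8 markers of leukocytes, hepatocytes, endothelium and fibroblasts, all but COL1A1 and COL3A1 (2.17 to 6.47 CPM) had 0 to 0.367 CPM.

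SEPT7, on chromosome 7 (35800932 to 35907105, plus strand), showed about 2 times as much transcript in the knockdown line as in the control line. Untreated shControl cells had levels of 98.1 and 111 CPM, those given HNE 109.6 and 99.5 CPM, and those given H2O2 103 and 91.8 CPM. Untreated shHuR cells had 200.1 and 177 CPM, those given HNE 219 and 210.0 CPM, and those given H2O2 188 and 196 CPM. Every shHuR library was above every shControl library, and the lowest shHuR value, 177 CPM, exceeded the highest shControl value, 111 CPM. The mean of all treatments was 102 ± 7.25 CPM over the 6 shControl libraries and 198 ± 15.1 CPM over the 6 shHuR libraries (SD, n = 6), a ratio of 1.94. In RNA from whole cultures, a change in the number of cells carrying a transcript and a change in its amount per cell cannot be told apart. The ratio was 1.81 in untreated cells, 2.05 with HNE and 1.97 with H2O2.

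On the log2 scale the fitted difference between lines for SEPT7 was 0.96 (SE 0.0506) over all treatments, 0.85 (SE 0.0868) untreated, 1.04 (SE 0.0870) with HNE and 0.98 (SE 0.0871) with H2O2. SEPT7 was selected for this difference, so it carries no test here. For scale, 124 of the 16005 genes tested (0.775%), SEPT7 included, were higher in shHuR by at least that much over all treatments. Leaving out any 1 library gave 0.93 to 0.99.

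**Figure D1:**
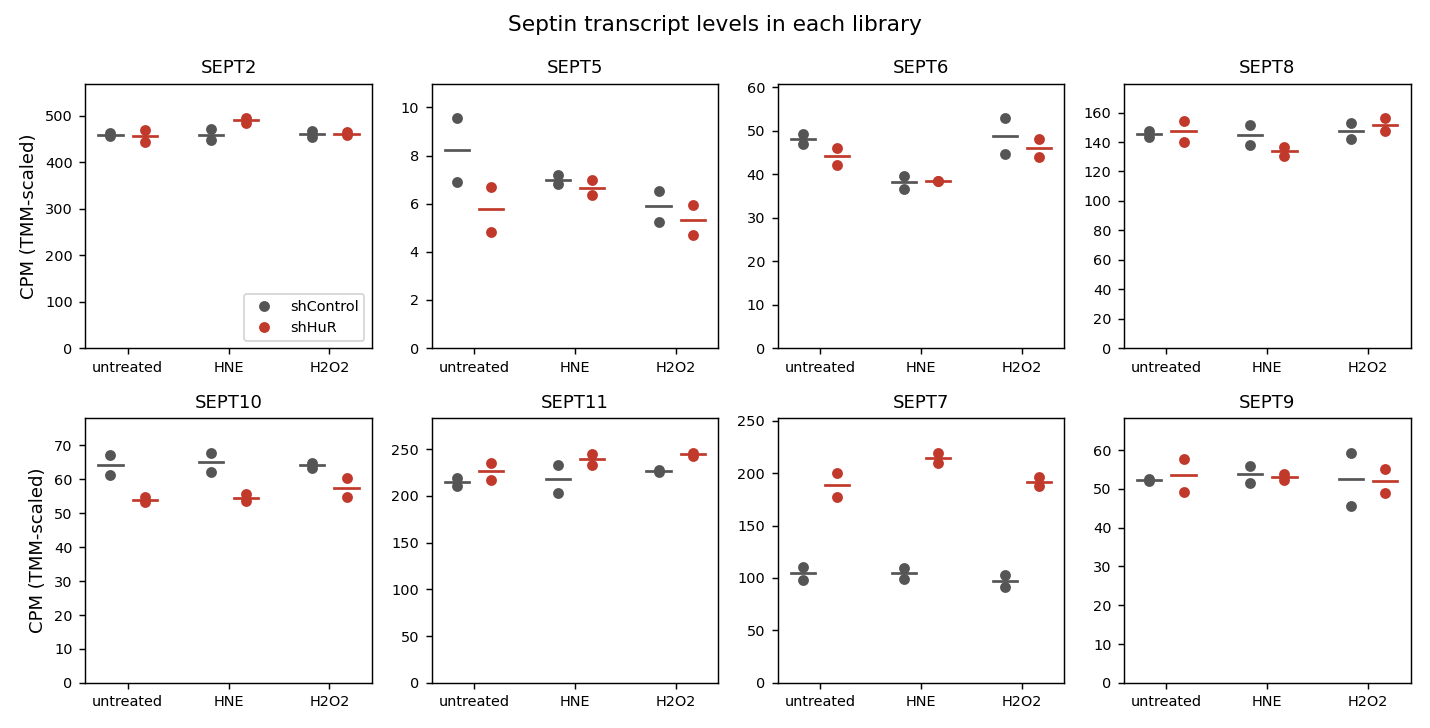
Level of each septin in every library, in CPM after TMM scaling, with an axis from 0 in each panel; grey points are shControl, red points shHuR, and the bars are means of the 2 replicates. SEPT7 lies between 91.8 and 111 CPM in shControl and between 177 and 219 CPM in shHuR, SEPT10 is lower in every shHuR library, and SEPT6 is lower in the HNE-treated libraries of both lines.

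Copies of SEPT7 elsewhere in the genome were examined because they could take or give reads. SEPT7P2, a transcribed pseudogene on the same chromosome (45723780 to 45768985, minus strand), had 21.2 ± 1.74 CPM over the 6 shControl libraries and 19.4 ± 0.979 CPM over the 6 shHuR libraries (SD, n = 6), with overlapping lines. The row SEPT7L had 5 to 18 counts per library in shControl and 17 to 32 in shHuR, so its levels of 0.190 to 0.644 CPM and 0.624 to 1.30 CPM rest on few reads. The log2 difference between lines over all treatments was -0.12 (SE 0.0629, edgeR adjusted p = 0.149) for SEPT7P2 and 0.91 (SE 0.311) for SEPT7L. SEPT7L lay past the threshold. Reads of SEPT7, which was chosen on this contrast, could fall on that row, so its place past the threshold carries no test. When the counts of SEPT7, SEPT7P2 and SEPT7L were summed, an alternative chosen after seeing the data, the difference between lines was 0.82 on the log2 scale.

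The neighbours of SEPT7 on the chromosome were measured too. Of 7 other tested genes that start within 1000 kb of the SEPT7 start in GENCODE release 29, the nearest on either side were HERPUD2, 105 kb away, at a log2 difference of -0.07 (SE 0.0765, edgeR adjusted p = 0.5004), and EEPD1, 352 kb away, at 0.00 (0.0018, SE 0.112, edgeR adjusted p = 0.993). Of the 7, 2 passed the threshold of 0.05 between lines, where 29.9% of all genes did. These were DPY19L1, lower by 0.19 (log2 difference -0.19, SE 0.0582, edgeR adjusted p = 0.0192), and ANLN, higher by 0.40 (SE 0.0420, edgeR adjusted p = 2.38e-06). ANLN encodes anillin, a scaffold of the contractile ring that binds septins, and starts 589 kb from SEPT7.

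**Figure D2:**
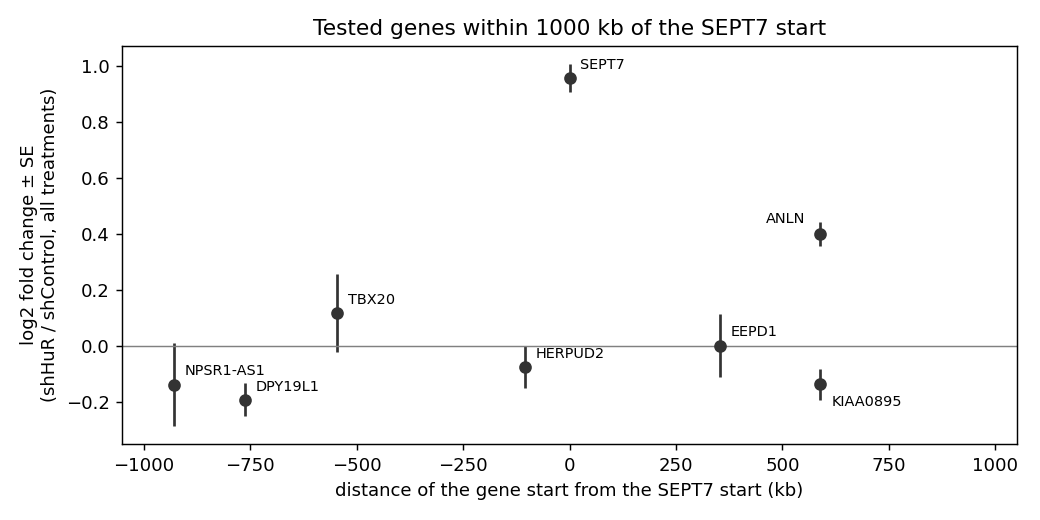
Log2 fold change between lines over all treatments (points, with bars for 1 SE) against the distance of each tested gene's start from the SEPT7 start in kb. SEPT7 stands at 0.96, ANLN at 0.40, and the other 6 genes lie between -0.19 and 0.12.

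The SEPT2 group, of which SEPT2 and SEPT5 were analysed here and can occupy the same place in a septin rod, did not share the SEPT7 pattern. SEPT2, a core subunit (chromosome 2, 241315100 to 241354027, plus strand), was the most abundant septin. Its lowest, median and highest levels were 448, 459 and 471 CPM in shControl and 444, 467 and 495 CPM in shHuR. The lines overlapped, and the fitted log2 difference over all treatments was 0.03 (SE 0.0349).

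SEPT5, best known from neurons and platelets (chromosome 22, 19714464 to 19724224, plus strand), was the least abundant. Its lowest, median and highest levels were 5.23, 6.87 and 9.55 CPM in shControl and 4.70, 6.15 and 6.96 CPM in shHuR, with a log2 difference of -0.24 (SE 0.121) over all treatments and -0.51 (SE 0.204) in untreated cells. Single untreated libraries moved both: they were -0.14 and -0.25 without replicate 2 of untreated shControl, and -0.15 and -0.29 without replicate 1 of untreated shHuR. Without replicate 2 of untreated shHuR the untreated estimate was -0.77. Because between 45.8% and 70.9% of the counts of its locus were assigned to the SEPT5 row, most of the rest going to SEPT5-GP1BB, the 3 overlapping rows (SEPT5, SEPT5-GP1BB and GP1BB) were also summed. The locus then had 12.5 ± 1.03 CPM over the 6 shControl libraries and 10.2 ± 1.03 CPM over the 6 shHuR libraries (SD, n = 6), a log2 difference of -0.30 (SE 0.0743) that lay past the threshold where the SEPT5 row alone did not. The sum was chosen after seeing the data, on the contrast around which the members were picked, so its place past the threshold carries no test. The locus values of the lines overlapped (8.96 to 11.9 CPM in shHuR and 11.2 to 14.0 CPM in shControl).

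Of the SEPT6 group, SEPT6, SEPT8, SEPT10 and SEPT11 were analysed here, and they can replace each other beside SEPT7 in the rod. Their differences between lines were small and of both signs. SEPT10 (chromosome 2, 109542982 to 109614206, minus strand) was lower in the knockdown line. Its shControl levels were 67.3 and 61.3 CPM without treatment, 62.2 and 67.8 CPM after HNE, and 63.4 and 64.8 CPM after H2O2. Its shHuR levels were 53.2 and 54.9 CPM without treatment, 55.6 and 53.5 CPM after HNE, and 60.3 and 54.7 CPM after H2O2. The lines did not overlap, although the highest shHuR value (60.3 CPM) came close to the lowest shControl value (61.3 CPM). The mean was 64.5 ± 2.64 CPM over the 6 shControl libraries and 55.4 ± 2.59 CPM over the 6 shHuR libraries (SD, n = 6), a ratio of 0.859, and the log2 difference was -0.22 (SE 0.0454).

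SEPT11 (chromosome 4, 76949703 to 77040384, plus strand) lay on the other side. Its lowest, median and highest levels were 203, 222 and 233 CPM in shControl and 217, 239 and 246 CPM in shHuR, with overlap between the lines and a log2 difference of 0.11 (SE 0.0406). SEPT8 (chromosome 5, 132750817 to 132807241, minus strand) had 138, 145 and 153 CPM in shControl and 131, 144 and 156 CPM in shHuR as lowest, median and highest, a log2 difference of -0.02 (SE 0.0440) whose sign changed with library size as the scaling. SEPT6 (chromosome X, 119615724 to 119693370, minus strand) had 36.6, 45.8 and 52.9 CPM in shControl and 38.4, 43.0 and 48.0 CPM in shHuR in the same order, a log2 difference of -0.07 (SE 0.0534).

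SEPT9, whose subunits sit at the centre of the longer septin rods (chromosome 17, 77280569 to 77500596, plus strand), had the same mean in both lines, 52.9 ± 4.58 CPM over the 6 shControl libraries and 52.9 ± 3.41 CPM over the 6 shHuR libraries (SD, n = 6). Its log2 difference was 0.00 (-0.00088, SE 0.0615), with a sign that changed between scalings.

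Counted against all genes, 2 of the 8 septins (SEPT7 higher, SEPT10 lower) lay past an adjusted p of 0.05 in edgeR's quasi-likelihood test of the lines over all treatments, where 29.9% of the 16005 genes did. In untreated cells it was 1 of 8 (7.98% of all genes), with HNE 1 of 8 (8.27%) and with H2O2 1 of 8 (7.19%), each time SEPT7. The lines did not overlap for the same 2 members, as for 12.1% of all genes. The median log2 difference of the 8 over all treatments was -0.0099, beside -0.0018 over all genes. Nothing is read from these counts, since SEPT7 was chosen on this contrast. SEPT10 had similar estimates in untreated cells (-0.25, SE 0.0798) and with HNE (-0.25, SE 0.0798) and a smaller one with H2O2 (-0.16, SE 0.0795), and with 2 libraries a group none of the 3 reached the threshold. The estimate with H2O2 was -0.23 without replicate 1 of the H2O2-treated shHuR group (the library at 60.3 CPM) and -0.087 without replicate 2 of that group. Without replicate 1 or replicate 2 of the HNE-treated shControl group the count in untreated cells became 2, and without replicate 1 of that group the count with HNE became 3, SEPT10 and SEPT11 joining SEPT7.

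**Figure D3:**
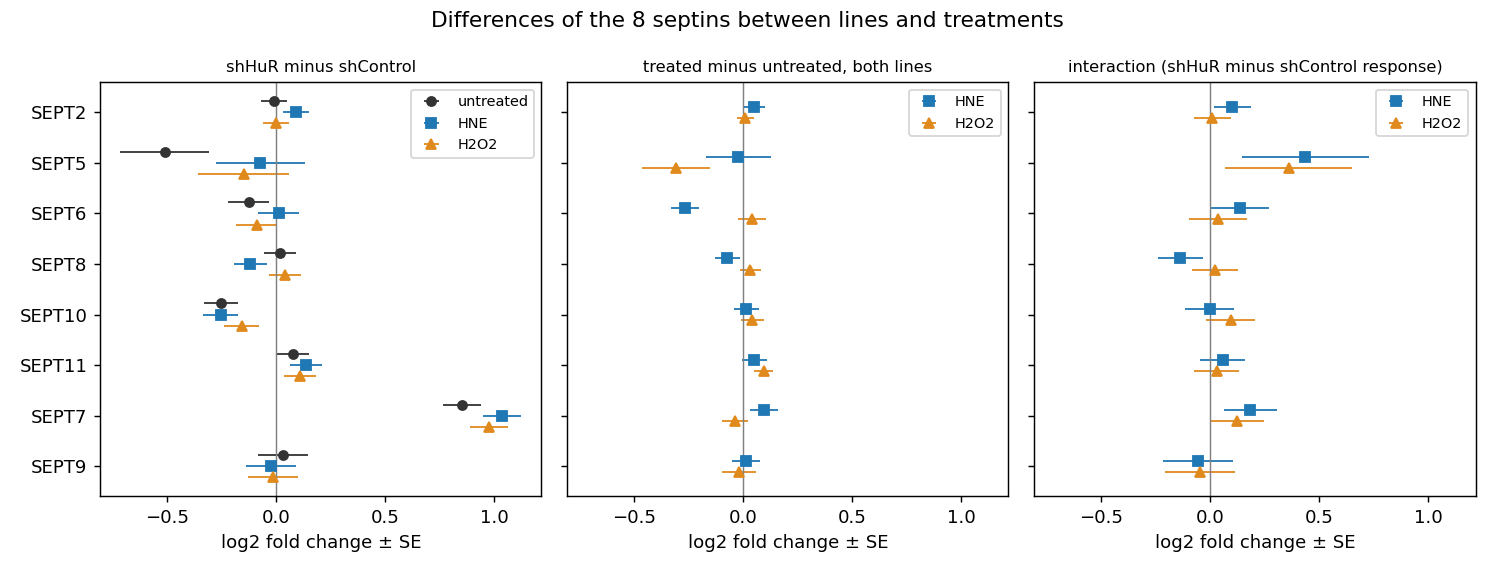
Log2 fold changes of the 8 septins (points, with bars for 1 SE) between the lines within each treatment, between treated and untreated cells over both lines, and for the interaction of line and treatment. Between lines SEPT7 lies from 0.85 to 1.04, and every treatment and interaction estimate lies between -0.31 and 0.44.

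The members were chosen around the line difference of SEPT7 and not on a treatment effect, so the treatments were tested. Earlier results of these data were known at that choice. With HNE over both lines, 0 of 8 septins passed edgeR's quasi-likelihood test, where 0.247% of 15780 genes did, and 1 had an unadjusted p under 0.05. That member was SEPT6. Its level was 47.0 and 49.2 CPM in untreated shControl cells and 39.6 and 36.6 CPM with HNE, and 42.1 and 46.1 CPM in untreated shHuR cells and 38.4 and 38.5 CPM with HNE. All 4 HNE-treated libraries lay below all 4 untreated ones, as for 2.35% of genes, and with H2O2 the level was 43.9 to 52.9 CPM. The log2 change was -0.27 (SE 0.0640, unadjusted p = 0.000998, edgeR adjusted p = 0.136). It passed with DESeq2 (adjusted p = 0.0292) and in edgeR when low genes were kept (adjusted p = 0.0324), and did not pass in the 3 limma fits to FPKM (adjusted p from 0.156 to 0.217). Over all alternatives and left-out libraries the adjusted p ran from 0.0292 to 0.383.

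For the other 7 septins the HNE estimates over both lines lay between -0.07 (SEPT8) and 0.10 (SEPT7), with SE of 0.0488 to 0.147 and edgeR adjusted p from 0.569 to 0.969. SEPT7 itself was at 0.10 (SE 0.0653, edgeR adjusted p = 0.569). With H2O2 over both lines 0 of 8 passed in edgeR, DESeq2 and limma, where 0% of 15801 genes passed in edgeR, and 1 had an unadjusted p under 0.05. This was SEPT11, at 0.10 (SE 0.0431, unadjusted p = 0.0435, edgeR adjusted p = 0.900). The lowest estimate with H2O2 was that of SEPT5, -0.31 (SE 0.155, edgeR adjusted p = 0.900), and -0.17 without replicate 2 of untreated shControl. In each line taken alone 0 of 8 passed for either treatment in edgeR, DESeq2 and limma, where edgeR called 0.0187% of all genes for HNE in shControl, 0.075% for HNE in shHuR and 0% for H2O2 in either line, and 3 of the 32 estimates had an unadjusted p under 0.05. These were SEPT6 with HNE in shControl (-0.33, SE 0.0945, edgeR adjusted p = 0.240), SEPT7 with HNE in shHuR (0.19, SE 0.0855, edgeR adjusted p = 0.552) and SEPT5 with H2O2 in shControl (-0.48, SE 0.204, edgeR adjusted p = 0.998). SEPT6 with HNE in shHuR was at -0.20 (SE 0.0949, edgeR adjusted p = 0.573). The 2 HNE-treated shControl libraries were the least alike, with a chi-square of 22.6 per degree of freedom between their counts. In the other groups it was 3.02 to 10.9. The fits pool the spread over groups, so few calls do not show that HNE changed few genes.

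Whether a treatment acted differently on the septins in the knockdown line was tested by the interaction. For HNE and for H2O2 0 of 8 members passed in edgeR, DESeq2 and limma, and 0 had an unadjusted p under 0.05, where 0% of 16005 genes passed each test in edgeR. The interaction for SEPT7 was 0.18 (SE 0.122, edgeR adjusted p = 0.770) with HNE and 0.13 (SE 0.122, edgeR adjusted p = 1.00) with H2O2. The largest estimate was that of SEPT5 with HNE, 0.44 (SE 0.289, edgeR adjusted p = 0.770), and it was -0.09 when the 3 rows of the locus were summed. SEPT6, the member lowest with HNE, had an interaction of 0.14 (SE 0.134, edgeR adjusted p = 0.849). With 1 library left out these estimates ran over 0.10 to 0.27 (SEPT7 with HNE), 0.04 to 0.21 (SEPT7 with H2O2), 0.19 to 0.70 (SEPT5 with HNE) and 0.07 to 0.20 (SEPT6 with HNE). Given the spread between the HNE-treated shControl libraries, the absence of calls does not show that the lines responded alike.

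Levels per length were compared with the deposited FPKM (fragments scaled to transcript length and library), since CPM favours long transcripts. In shControl SEPT2 came first with a mean of 143 FPKM, followed by SEPT11 (40.0), SEPT8 (34.7), SEPT7 (24.1), SEPT10 (20.7), SEPT9 (13.8), SEPT6 (13.5) and SEPT5 (3.59). The ranges of SEPT7 and SEPT10 over the 6 libraries overlapped, as did those of SEPT9 and SEPT6, and the other neighbours were apart. In shHuR SEPT7 stood in second place, at 46.9 FPKM (41.9 to 51.8), with a range that overlapped that of SEPT11 (39.8 to 45.1). The other 6 kept their order, and SEPT10, at 17.8 FPKM, now lay apart from SEPT7.

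The makeup of the transcript pool of these 8 septins, which leaves out SEPT3 of the SEPT9 group, followed from this. SEPT7 supplied 8.20 ± 0.518% (SD, n = 6) of the summed FPKM of the 8 genes in shControl and 14.7 ± 0.934% (SD, n = 6) in shHuR. The SEPT2 group supplied 50.0 ± 0.606% (SD, n = 6) and 46.8 ± 1.14% (SD, n = 6), the SEPT6 group 37.1 ± 0.786% and 34.1 ± 1.82% (SD, n = 6), and SEPT9 4.69 ± 0.395% and 4.35 ± 0.290% (SD, n = 6). In FPKM itself the SEPT6 group summed to 109 ± 3.86 in shControl and 109 ± 5.14 in shHuR (SD, n = 6), so the ratio of SEPT6 group to SEPT7 transcript was 4.55 ± 0.398 in shControl and 2.33 ± 0.270 in shHuR (SD, n = 6). The ratio of SEPT7 to SEPT9 was 1.76 ± 0.224 and 3.40 ± 0.389 (SD, n = 6). In these ratios, each of which contains SEPT7, the ranges of the lines did not overlap. Those of the SEPT9 share did (4.05 to 5.26% in shControl and 4.07 to 4.87% in shHuR). These shares and ratios describe transcripts, and protein levels were not analysed here.

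**Figure D4:**
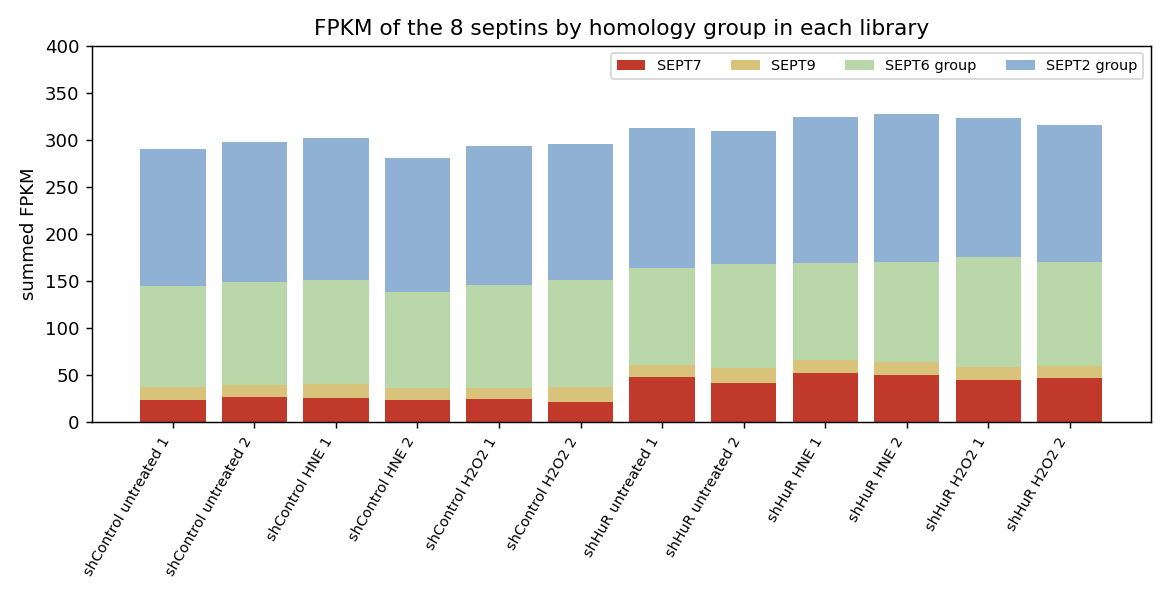
Summed FPKM of the 8 septins in each library, stacked by homology group, with the axis from 0. The SEPT7 segment covers 21.6 to 26.1 FPKM in the shControl libraries and 41.9 to 51.8 FPKM in the shHuR libraries, beside totals of 281 to 302 and 310 to 328 FPKM.

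Sequence features of the transcripts were counted because HuR binds AU-rich and U-rich 3′ UTRs. The pentamer ATTTA, searched on the transcript strand with overlaps allowed, occurred 12 times in the 2812-base 3′ UTR of SEPT7, or 4.27 per kb. The median over 18925 coding genes was 1.41 per kb, and 64.4% of their 3′ UTRs held at least 1. SEPT8 (5.00 per kb), SEPT10 (3.78), SEPT2 (2.87) and SEPT11 (1.46) were also above the median, SEPT5 (1.20) and SEPT6 (0.89) were below it, and SEPT9 had none in 1934 bases. Thus 7 of the 8 held at least 1 match, in 3′ UTRs that were mostly longer than the median of 871 bases. The part of these letters in the levels of the transcripts was not tested.

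The seed of the hairpin's antisense strand, in capitals in tGCAAACTtcactgtgatggg (bases 2 to 8), is shown because a seed can bring a hairpin to other transcripts. Its site, AGTTTGC, occurred once in the 3′ UTR of SEPT2, SEPT7 and SEPT11 and not in those of the other 5, against 9.83% of all 3′ UTRs. These 3 have long 3′ UTRs (2087, 2812 and 4102 bases, beside a median of 871 over all genes), so the shares are not like for like. The site also occurred once outside the 3′ UTR in the SEPT9 and SEPT10 transcripts, and 20.8% of all transcripts held it. The corresponding seed site of the control hairpin, GCGACGT, occurred in no septin 3′ UTR, against 0.386% of all. These are matches of letters and not measured sites.

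Over the 12 libraries the genes most like SEPT7, by Pearson's r of log2(CPM + 1) among 11261 tested genes with a mean of at least 5 CPM, were TMEM167A (r = 0.995), LAPTM4A (0.99), FBN1 (0.98), FZD6 (0.98) and DDX6 (0.98). The most opposite were INSIG1 (-0.98), TMEM87B (-0.98) and CCND1 (-0.98). These values describe 12 libraries that fall into 2 lines and share library scaling. Within the 6 shControl libraries r with SEPT7 was 0.92 for TMEM167A, 0.50 for LAPTM4A, 0.45 for FBN1, 0.26 for FZD6 and 0.68 for DDX6, and within the 6 shHuR libraries it was 0.88, 0.74, 0.57, 0.73 and 0.84. For INSIG1 and TMEM87B it was -0.68 and -0.45 within shControl and -0.44 and -0.72 within shHuR. CCND1 changed sign, with 0.19 within shControl and -0.58 within shHuR. TMEM167A, a small Golgi membrane protein gene, had 122 ± 6.55 CPM in shControl and 207 ± 14.4 CPM in shHuR (SD, n = 6). CCND1, the cyclin D1 gene, had 58.5 ± 1.76 CPM and 27.5 ± 1.81 CPM (SD, n = 6).

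Partners of the septins were taken from a list of 44 genes, of which 43 were tested and CDC42EP5 was too low. Between lines over all treatments 11 were higher and 7 lower in shHuR, 18 of 43 (41.9%) beside 29.9% of all genes (14.1% higher and 15.9% lower), with a median log2 difference of 0.05 beside -0.0018. In untreated cells 7 of 43 passed (16.3% beside 7.98% of all genes), with HNE 3 (6.98% beside 8.27%) and with H2O2 5 (11.6% beside 7.19%). Among CDC42 and the Borg proteins, which bind septins downstream of the GTPase CDC42, 2 of 5 were higher and 1 lower. Of 16 contractile ring genes 3 were higher and 2 lower, of 13 central spindle and abscission genes 5 were higher and 1 lower, and of 9 genes for the exocyst (the complex that tethers secretory vesicles) and MAP4 1 was higher and 3 lower.

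The largest rises in the list were those of ANLN, KIF20A, CHMP4B and CDC42EP2. ANLN had 140 to 163 CPM in the shControl libraries and 182 to 211 CPM in the shHuR libraries. These did not overlap, as for 12.1% of all genes. KIF20A, a kinesin of the central spindle, had 82.0 ± 6.75 and 106 ± 4.35 CPM (SD, n = 6), a log2 difference of 0.37 (SE 0.0448, edgeR adjusted p = 1.09e-05). CHMP4B, an ESCRT subunit of abscission, differed by 0.31 (SE 0.0675, edgeR adjusted p = 0.00225) and the Borg protein gene CDC42EP2 by 0.27 (SE 0.0780, edgeR adjusted p = 0.0143). ANLN and KIF20A also passed within each treatment, ANLN with estimates of 0.36 to 0.43 and KIF20A of 0.31 to 0.46. These passes come from the libraries of the average on which the genes were picked, so they are no separate support.

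The largest falls were those of DIAPH2, EXOC5, CDC42EP1 and EXOC2. DIAPH2, a formin that nucleates actin, had 56.1 ± 2.43 CPM in shControl and 43.3 ± 2.32 CPM in shHuR (SD, n = 6). Its log2 difference was -0.38 (SE 0.0454, edgeR adjusted p = 1.09e-05). DIAPH2 also passed within each treatment, in the same libraries, which is no separate support. EXOC5, an exocyst subunit, had 178 ± 4.63 and 149 ± 11.1 CPM (SD, n = 6), a difference of -0.27 (SE 0.0406, edgeR adjusted p = 0.000107). The differences were -0.23 for CDC42EP1 (SE 0.0842, edgeR adjusted p = 0.0469) and -0.18 for EXOC2 (SE 0.0360, edgeR adjusted p = 0.00131). With HNE over both lines 0 of 43 passed in edgeR, DESeq2 and limma, with 7 at an unadjusted p under 0.05 in edgeR, and with H2O2 0 of 43 passed in any of them, with 2 at an unadjusted p under 0.05.

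**Figure D5:**
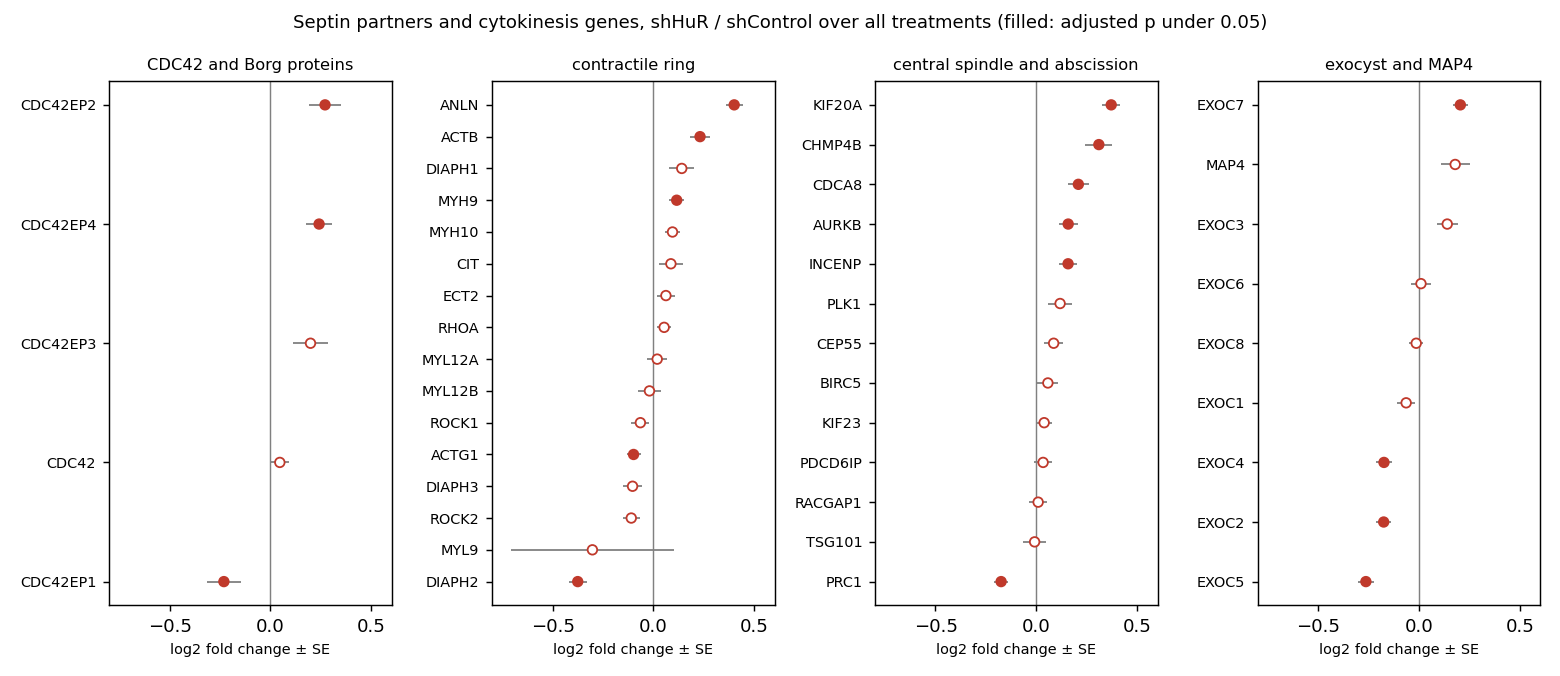
Log2 fold change between lines over all treatments (points, with bars for 1 SE) of the 43 tested partner genes in their 4 lists; filled points passed an adjusted p of 0.05 in edgeR. ANLN (0.40) and KIF20A (0.37) are the highest and DIAPH2 (-0.38) the lowest of the filled points.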

How the data were processed

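RNA was sequenced from 12 HEK293T libraries, 2 for each of 6 groups. Per the submitters' processing notes, cutadapt 1.8, Bowtie2 2.2, TopHat2 2.1, Cufflinks 2.2, Cuffnorm and Cuffdiff were used with GRCh37 (hg19); the annotation and strand setting are not given in the sources used here. The authors deposited estimated counts per gene symbol, of which 2.25% were not whole, and FPKM values scaled by the authors to length and library. Estimated counts were rounded. Reads carry no molecular identifiers, so they are not independent molecules.

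Genes were filtered with filterByExpr (minimum count 10), scaled with TMM and tested over the whole table with edgeR 4.0.16 (quasi-likelihood, R 4.3.3), with p-values adjusted by Benjamini-Hochberg and called below 0.05. Comparisons within a treatment and interactions used 6 group means. For the line effect over all treatments, 12 libraries were fitted with a treatment term, and for each treatment over both lines, 8 libraries with a line term. The SE was the log2 change divided by the root of F. Alternatives were DESeq2 1.42.0, limma 3.58.1 on log2(FPKM + 1) and log2(FPKM + 0.1) (genes averaging 1 FPKM or more), other scalings and filters, the replicate block, compared groups alone and left-out libraries. The pseudocount makes limma's changes of low genes too small. Sums of the SEPT5 locus and of SEPT7 with its pseudogene rows were added after seeing the data. Scripts were tested on simulated data. Sequences came from GENCODE release 29, using the principal coding transcript of each gene.

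The members and lists were chosen with earlier results of these data known. Named genes were the 8 members, ELAVL1, other septin rows, the 4 largest called rises and falls of the partner list, and the 5 most and 3 least SEPT7-like genes.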

Additional observations from a re-analysis of the deposited data

Results flagged for a closer look

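SEPT10 in replicate 1 of the H2O2-treated shHuR group stood at 60.3 CPM, apart from the other 5 shHuR libraries, the nearest of which was at 55.6 CPM. The gap was 0.656 of the range of the 6 libraries, above Dixon's 95% critical value for 6 samples. Across 16 sets of 6 libraries (8 septins in 2 lines) chance alone flags about 1 in 20, and the 6 libraries of a line mix 3 treatments. Without that library the line difference of SEPT10 was -0.25 on the log2 scale, beside -0.22 with it.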

How the results depend on the processing

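The 73 results were those of single septins and the counts of septins called. For single septins the alternatives kept direction and side of the threshold in 1349 comparisons, with 85 changes of sign and 14 newly past the threshold. The counts stayed the same or close in 199 comparisons and moved in 5. SEPT7 between lines over all treatments lay between 0.82 and 0.98, and 0.93 to 0.99 with 1 library left out. SEPT11 between lines over all treatments (0.11) passed with DESeq2, RLE size factors, library size and the limma fits to filtered FPKM. This describes the settings and carries no test, since the members were chosen around this contrast. For HNE over both lines the count of septins called was 1 with DESeq2 and 1 without a filter on low counts (SEPT6), against 0. With 1 library left out the count ran from 1 to 2 in untreated cells and from 1 to 3 with HNE. The cause of the changes of sign was not tested. For SEPT9 between lines they were 0.0036 (DESeq2), 0.0036 (RLE), 0.021 (library size), 0.0043 (no filter), 0.013 (limma with a pseudocount of 1, with or without a filter) and 0.014 (limma with 0.1) over all treatments. With H2O2 they were 0.0072 (library size), 0.0056 (limma, 1) and 0.0066 (limma, 0.1), and with HNE 0.0022, 0.00030 and 0.00044 in the same order. With library size SEPT9 was at -0.0019 for HNE over both lines, SEPT8 at 0.0030 between lines over all treatments and SEPT2 at 0.0091 between untreated lines. The HNE interaction of SEPT10 was 0.00046 (DESeq2), 0.00042 (RLE) and 0.0079 (library size). With the locus sum, SEPT5 interactions were -0.093 (HNE, 0.44 for the SEPT5 row) and -0.053 (H2O2, 0.36 for the row).

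With 1 library left out, these estimates also crossed 0: for the lines over all treatments, -0.040 to 0.016 for SEPT8 and -0.040 to 0.050 for SEPT9. For the untreated lines they ran from -0.043 to 0.030 for SEPT2, -0.051 to 0.090 for SEPT8 and -0.087 to 0.15 for SEPT9. For the lines with HNE they ran from -0.044 to 0.083 for SEPT6 and -0.080 to 0.049 for SEPT9. For the lines with H2O2 they ran from -0.014 to 0.025 for SEPT2, -0.33 to 0.025 for SEPT5, -0.20 to 0.041 for SEPT6, -0.0047 to 0.096 for SEPT8 and -0.18 to 0.19 for SEPT9. For HNE over both lines they ran from -0.012 to 0.042 for SEPT10, -0.14 to 0.13 for SEPT5 and -0.027 to 0.064 for SEPT9. For H2O2 over both lines they ran from -0.0048 to 0.024 for SEPT2, -0.0057 to 0.090 for SEPT6, -0.083 to 0.011 for SEPT7 and -0.10 to 0.047 for SEPT9. For the HNE interaction they ran from -0.067 to 0.069 for SEPT10, -0.040 to 0.17 for SEPT11 and -0.17 to 0.065 for SEPT9. For the H2O2 interaction they ran from -0.026 to 0.089 for SEPT11, -0.028 to 0.048 for SEPT2, -0.077 to 0.16 for SEPT6, -0.046 to 0.093 for SEPT8 and -0.22 to 0.16 for SEPT9.

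The labels do not say whether same-numbered replicates share a day or batch. Their deviations correlated at -0.23 to 0.28 over 15 pairs of groups, which does not settle it. With the replicate block SEPT7 between lines over all treatments was 0.96, the count of septins called was 2, and all 73 results kept their direction and side of the threshold. Fits of the compared groups alone do not apply to effects averaged over treatments or lines.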

Other observations

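Among the other septin genes of the tables, SEPT3 had a higher mean than the member SEPT5 (7.04 CPM in shControl and 5.91 CPM in shHuR). The rest were below it. SEPT3, a neuronal septin of the SEPT9 group, had 12.0 ± 2.78 CPM in shControl and 13.7 ± 1.51 CPM in shHuR (SD, n = 6), a log2 difference of 0.19 (SE 0.114, edgeR adjusted p = 0.216). It had a log2 change of -0.35 with HNE over both lines (SE 0.148, edgeR adjusted p = 0.359). SEPT1 and SEPT4, of the SEPT2 group, had 1.84 ± 0.552 and 1.57 ± 0.372 CPM in shControl and 2.02 ± 0.459 and 1.72 ± 0.311 CPM in shHuR (SD, n = 6). SEPT14, of the SEPT6 group, had 1.06 ± 0.428 and 1.37 ± 0.441 CPM (SD, n = 6), and none of these 4 passed between lines over all treatments (edgeR adjusted p from 0.216 to 0.659). SEPT12, known from testis, had 0 to 8 counts per library and was not tested. The readthrough gene SEPT5-GP1BB had 5.39 ± 0.854 CPM in shControl and 4.10 ± 1.40 CPM in shHuR (SD, n = 6), with its lowest values, 2.40 and 2.77 CPM, in the HNE-treated shHuR libraries, and its counts were fractional. It passed between lines over all treatments (log2 difference -0.44, SE 0.161, edgeR adjusted p = 0.0493) and with HNE (-0.97, SE 0.243, edgeR adjusted p = 0.0266). It did not pass in untreated cells (0.06, SE 0.227, edgeR adjusted p = 0.900) or with H2O2 (-0.47, SE 0.228, edgeR adjusted p = 0.236). Its HNE interaction was -1.03 (SE 0.333, edgeR adjusted p = 0.712). In the HNE-treated shHuR libraries 70.9% and 66.3% of the locus counts went to the SEPT5 row, beside 54.7% and 58.9% in HNE-treated shControl. The summed locus had 8.96 and 10.5 CPM there, beside 13.1 and 11.6 CPM. The part of read assignment in these calls was not tested.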
